A study of Mus musculus with 13 samples.

Results

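The globin genes of 13 mouse embryos of embryonic day 9.5 are described here. Globins are the protein chains of hemoglobin, the oxygen carrier of red blood cells. Of the 23217 genes in the expression table, 7 were taken by their symbol: the embryonic genes Hba-x, Hbb-y and Hbb-bh1 and the adult genes Hba-a1, Hba-a2, Hbb-b1 and Hbb-b2. Polyadenylated RNA was sequenced from 10 embryos labelled xHomo and 3 labelled xHet, all of embryonic day 9.5 and on the C57BL/6J background. The labels do not spell out either genotype name. From what is known of the study, xHomo and xHet embryos had fathers homozygous or heterozygous for a Tet1 mutation, and the question was what paternal loss of this 5-methylcytosine oxidizing enzyme does to genomic imprints in the offspring. Litter, sex and batch are not in the labels, so a p-value speaks of the spread among these embryos alone.

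Each hemoglobin molecule joins alpha-type chains, encoded on mouse chromosome 11, to beta-type chains, encoded on chromosome 7. The first red cells, the primitive erythroid cells, arise in the yolk sac, enter the circulation at midgestation, and use the embryonic zeta chain (Hba-x) with the embryonic beta-type chains from Hbb-bh1 and Hbb-y, together with adult alpha chains. As these cells mature, the output of Hbb-bh1 gives way to that of Hbb-y, and the definitive red cells that later leave the fetal liver use adult alpha and adult beta chains. The transcription factors GATA1 and KLF1 drive globin genes, and BCL11A and SOX6 silence the embryonic beta-type genes in definitive cells.

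The stretches just upstream of the gene starts are where the general and the erythroid factors bind, so they are shown for embryonic and adult genes of both clusters. RefSeq's table for GRCm38.p6, a later build than that of the expression values, held 4 of the 7 members (Hba-x, Hba-a1, Hba-a2 and Hbb-y) and the C57BL/6 adult beta genes Hbb-bs and Hbb-bt. The last 120 bases before each start are given 5′ to 3′ on the gene's own strand, and capitals mark 4 motifs on either strand: TATAA, the core of the TATA box; CCAAT, the core of the CCAAT box; CACCC, the core that KLF1 binds; and GATA, the core that GATA1 binds. They lie at chr11:32276480-32276599 (plus strand) for Hba-x, chr11:32283552-32283671 (plus) for Hba-a1, chr7:103853208-103853327 (minus) for Hbb-y, chr7:103827929-103828048 (minus) for Hbb-bs and chr7:103813924-103814043 (minus) for Hbb-bt.
Hba-x: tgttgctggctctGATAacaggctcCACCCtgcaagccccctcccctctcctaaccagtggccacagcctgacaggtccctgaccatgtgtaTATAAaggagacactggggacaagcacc
Hba-a1: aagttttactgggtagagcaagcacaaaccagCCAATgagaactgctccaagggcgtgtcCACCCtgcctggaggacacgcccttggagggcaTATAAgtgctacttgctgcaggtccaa
Hbb-y: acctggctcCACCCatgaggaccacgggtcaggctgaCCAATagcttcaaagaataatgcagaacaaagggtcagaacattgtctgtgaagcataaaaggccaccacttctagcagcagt
Hbb-bs: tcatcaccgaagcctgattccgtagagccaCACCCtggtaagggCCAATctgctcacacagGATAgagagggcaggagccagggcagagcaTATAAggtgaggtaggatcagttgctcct
Hbb-bt: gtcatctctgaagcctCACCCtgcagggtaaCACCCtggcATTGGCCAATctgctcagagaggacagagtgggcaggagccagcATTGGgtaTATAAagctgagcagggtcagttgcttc
CACCC was found in all 5 of these windows, against 31.7% of the 32851 promoters of the same length in the table. TATAA was found in 4 of them, beginning 27 to 29 bases before the start, and not in the window of Hbb-y; 11.8% of all promoters hold it. CCAAT was found in 4, all but Hba-x, against 21.3% of all promoters. GATA was found in Hba-x and Hbb-bs, against 29.5% of all promoters. No matches overlapped one another. A match is a run of letters and not a measured binding site.

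How alike the transcripts are bears on how well a short read can be given to 1 gene. In the GENCODE M21 coding sequences Hba-a1 and Hba-a2 differed at 1 of 429 bases, C381T, counted from the first base of the start codon with the base of Hba-a1 first. Bases 351 to 410 of both are given with that base in capitals, and those of Hba-x, which differed from Hba-a1 at 163 bases (62.0% identity), with every base that differs from Hba-a1 in capitals.
Hba-a1: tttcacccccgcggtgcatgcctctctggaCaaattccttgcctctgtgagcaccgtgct
Hba-a2: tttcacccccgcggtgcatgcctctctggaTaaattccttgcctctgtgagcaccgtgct
Hba-x: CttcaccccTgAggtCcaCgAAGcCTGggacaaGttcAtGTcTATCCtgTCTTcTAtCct
Away from that base, reads from Hba-a1 and Hba-a2 coding sequence cannot be told apart, whereas Hba-x differs throughout the stretch. The expression table also lists both genes at 1 interval (mm9 chr11:32183671-32184493), so the split of signal between them is uncertain and their sum is given beside it. In GRCm38 the stretch before Hba-a2 lies at chr11:32296372-32296491, farther from that before Hba-a1 than this interval is long. The interval is thus too short to span both genes, and signal from the Hba-a2 locus may be missing from the sum. Shares that use the sum carry the same limit.

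In the beta cluster the embryonic genes differ more from each other: Hbb-y and Hbb-bh1 differed at 105 of 444 coding bases (76.4% identity). The first 90 coding bases of Hbb-y, Hbb-bh1 and the adult Hbb-bs are shown because the ratio of the first pair is followed among the results. Capitals in Hbb-y and Hbb-bh1 mark bases that differ between that pair, and those in Hbb-bs mark bases that differ from Hbb-y.
Hbb-y: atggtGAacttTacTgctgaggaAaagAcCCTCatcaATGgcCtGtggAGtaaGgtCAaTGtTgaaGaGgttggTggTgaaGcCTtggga
Hbb-bh1: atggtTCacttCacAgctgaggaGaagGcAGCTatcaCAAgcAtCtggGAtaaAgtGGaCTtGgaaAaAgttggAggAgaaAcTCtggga
Hbb-bs: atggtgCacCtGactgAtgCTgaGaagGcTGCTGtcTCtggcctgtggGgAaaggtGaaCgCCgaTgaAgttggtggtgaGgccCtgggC
The adult genes Hbb-bs and Hbb-bt differed from each other at 1 of 444 bases (C417T, Hbb-bs base first). C57BL/6 mice carry the form of the cluster with Hbb-bs and Hbb-bt, and Hbb-b1 and Hbb-b2 are the adult genes of other strains. The expression table has Hbb-b1 and Hbb-b2 at 1 interval (mm9 chr7:110961037-110962437) and, as a separate row outside the 7, Beta-s, which RefSeq gives as an older name of Hbb-bs. Measured from Hbb-y, the interval of Hbb-b1 and Hbb-b2 lies where Hbb-bt lies in GRCm38, and that of Beta-s where Hbb-bs lies. With coding sequences so alike, values of Hbb-b1, Hbb-b2 and Beta-s remain uncertain as values of single genes.

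Levels are in FPKM, the number of fragments divided by transcript length and by all mapped fragments of the library, which can be compared between genes. The read depth behind them is unknown; summed FPKM was 500126 to 662936 in xHomo embryos and 543948 to 570161 in xHet embryos. Genes of small RNA families, whose FPKM is inflated by their length, held 12.5% to 27.3% of that sum in xHomo embryos and 23.8% to 27.2% in xHet embryos, with xHomo embryo 3 the lowest. That library also stood apart in markers of other cells: the 7 endothelial markers summed to 63.1 FPKM in it, within an xHomo range of 63.1 to 167.8, against 161.3 to 171.5 FPKM in xHet embryos. Xist, which coats an inactive X, was under 1 FPKM in 5 xHomo embryos and in all 3 xHet embryos.

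Embryonic globins were among the most abundant transcripts of these embryos: by mean FPKM Hbb-y ranked 9, Hbb-bh1 20 and Hba-x 22 among the 23217 genes. The 7 genes held 1.90% ± 0.575 (SD, n = 10) of the summed FPKM in xHomo embryos and 1.88% ± 0.0592 (SD, n = 3) in xHet embryos. With small RNA genes left out of the sum the share was 2.38% ± 0.710 in xHomo and 2.54% ± 0.141 in xHet embryos, so the order of the means turned. No globin gene passed the group test, which was limma on log2(FPKM + 1) over 12755 genes, adjusted over all of them by the Benjamini-Hochberg method. In that test 3 genes were higher in xHomo (0.0235% of those tested) and 0 were lower (0%); with totals taken without globin and small RNA genes the calls were 4 higher and 1 lower. The xHomo embryos differed among themselves far more than the xHet embryos did, by 2.99 times between the highest and the lowest summed globin FPKM, against 1.02 times, in groups of 10 and 3 embryos.

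**Figure D1:**
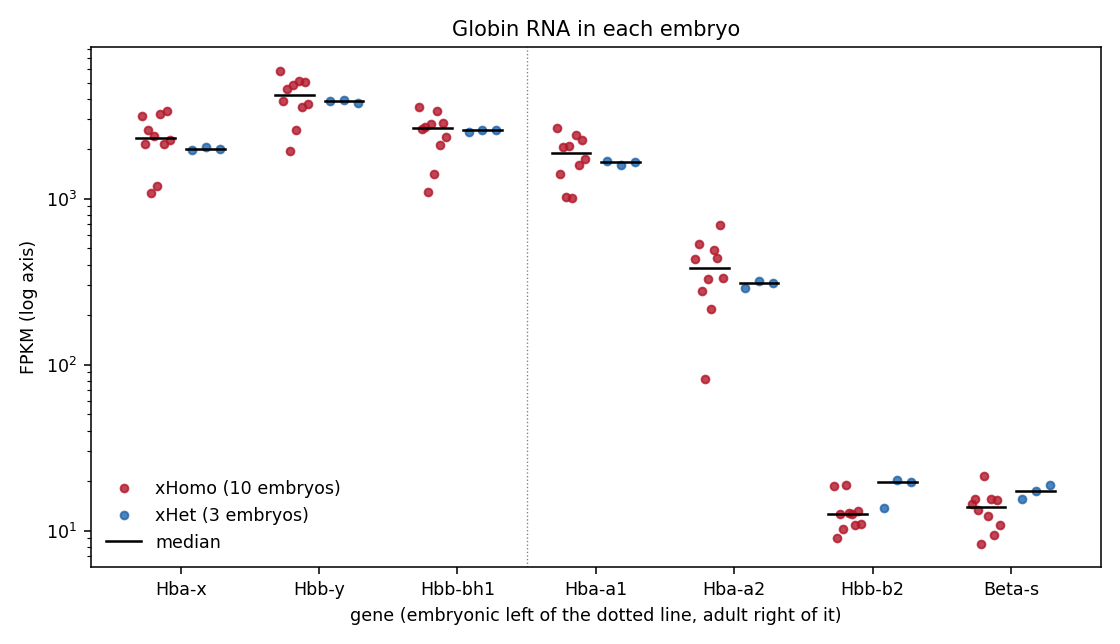
FPKM (log axis) of 6 globin genes and Beta-s in each embryo, with xHomo embryos left of xHet embryos for every gene and a black bar at each group's median; Hbb-b1, listed at 0 in 12 embryos, is not drawn. For the 5 most abundant genes the xHet points lie almost on one another while the xHomo points reach both above and below them.

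The embryonic alpha-type gene Hba-x (mm9 chr11:32176599-32178115 as the table gives it) encodes the zeta chain. Its level in xHomo embryos was 1086 FPKM at the lowest, 2309 at the median and 3353 at the highest, against 1958, 2041 and 1983 FPKM in xHet embryos 1, 2 and 3. The groups overlapped in that 8 xHomo embryos lay above all xHet embryos and 2, embryos 4 and 6, below them. The means were 2347 ± 786 FPKM (SD, n = 10) in xHomo and 1994 ± 42.8 FPKM (SD, n = 3) in xHet embryos, a log2 difference of 0.15 (SE 0.31, limma adjusted p = 0.896).

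Hbb-y (mm9 chr7:111000267-111001721), the epsilon-type embryonic beta chain gene, had the highest level of the 7 in every embryo. It stood at 1940 FPKM at the lowest, 4225 at the median and 5866 at the highest of the xHomo embryos, against 3847, 3933 and 3785 FPKM in the xHet embryos. Of the xHomo embryos 5 lay above and 4 below all xHet embryos. The means were 4102 ± 1213 FPKM (SD, n = 10) in xHomo and 3855 ± 74.3 FPKM (SD, n = 3) in xHet embryos, with a log2 difference of 0.02 (SE 0.28, limma adjusted p = 0.982).

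Hbb-bh1 (mm9 chr7:110990151-110991676), the beta-type gene that leads in the earliest primitive red cells, was at 1098, 2659 and 3569 FPKM (lowest, median and highest) in xHomo embryos, against 2527, 2593 and 2601 FPKM in the xHet embryos. The xHomo embryos fell on both sides of the narrow xHet range, 6 above and 4 below. Mean FPKM was 2488 ± 782 (SD, n = 10) in xHomo and 2574 ± 41.0 (SD, n = 3) in xHet embryos, with a log2 difference of -0.13 (SE 0.30, limma adjusted p = 0.903). Hbb-bh1 stood below Hbb-y in 13 of 13 embryos. It stood above Hba-x in 11 of 13, all but xHomo embryos 8 and 9, so these neighbours in level were not set apart beyond the spread.

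The adult alpha genes were abundant too. Hba-a1 (rank 41 by mean FPKM) was at 1008, 1887 and 2659 FPKM (lowest, median and highest) in xHomo embryos, against 1688, 1586 and 1651 FPKM in the xHet embryos. Hba-a2 was listed at 81.9, 381 and 695 FPKM in xHomo embryos, against 290, 318 and 309 FPKM in the xHet embryos. On both sides of the xHet range lay xHomo embryos, 6 above and 3 below for Hba-a1 and 7 above and 3 below for Hba-a2. The log2 differences were 0.08 (SE 0.27, limma adjusted p = 0.936) for Hba-a1 and 0.14 (SE 0.46, limma adjusted p = 0.934) for Hba-a2.

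The split within this near-identical pair varied among xHomo embryos: Hba-a2 took 7.41% of the pair's FPKM in xHomo embryo 4 and 27.3% in xHomo embryo 2, against 14.7% to 16.7% in xHet embryos. Summed, the pair came to 2204 ± 680 FPKM (SD, n = 10) in xHomo and 1948 ± 38.5 FPKM (SD, n = 3) in xHet embryos. Hba-x exceeded this sum in 9 of 13 embryos, with a ratio of 0.972 to 1.14, so zeta and adult alpha transcripts were close to equal as listed. The sum may lack signal from the Hba-a2 locus.

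Adult beta-type transcripts were rare. Hbb-b2 was listed at 18.5, 9.07, 12.6, 10.2, 18.8, 12.8, 12.7, 10.8, 13.02 and 11.0 FPKM in xHomo embryos 1 to 10, against 13.7, 20.3 and 19.7 FPKM in xHet embryos 1 to 3. No xHomo embryo lay above the xHet range, 8 lay below it, and embryos 1 and 5 lay inside it. The means were 12.9 ± 3.28 FPKM (SD, n = 10) in xHomo and 17.9 ± 3.65 FPKM (SD, n = 3) in xHet embryos, a log2 difference of -0.45 (SE 0.19). It did not pass adjustment in limma (p = 0.0337, adjusted p = 0.518). Unadjusted p under 0.05 with a lower value in xHomo was reached by 1 member of 6, Hbb-b2, against 1.72% of all genes tested; 7.63% of all genes were past that point with a higher value, and 0 members.

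Hbb-b1 was listed at 0 in 12 embryos and at 5.34 FPKM in xHomo embryo 3, which left it under the mean of 1 FPKM needed for the test. Added to Hbb-b2 in that embryo it gave 17.9 FPKM, and 7 rather than 8 xHomo embryos then lay below the xHet range. Beta-s, the separate adult beta-type row, was at 8.33, 13.95 and 21.3 FPKM (lowest, median and highest) in xHomo embryos, against 15.5, 17.4 and 18.8 FPKM in the xHet embryos. Its log2 difference was -0.35 (SE 0.20, limma adjusted p = 0.589), with 7 xHomo embryos below the xHet range and 1 above. Hbb-b2 and Beta-s were alike in level, with Hbb-b2 the higher in 7 of 13 embryos.

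**Figure D2:**
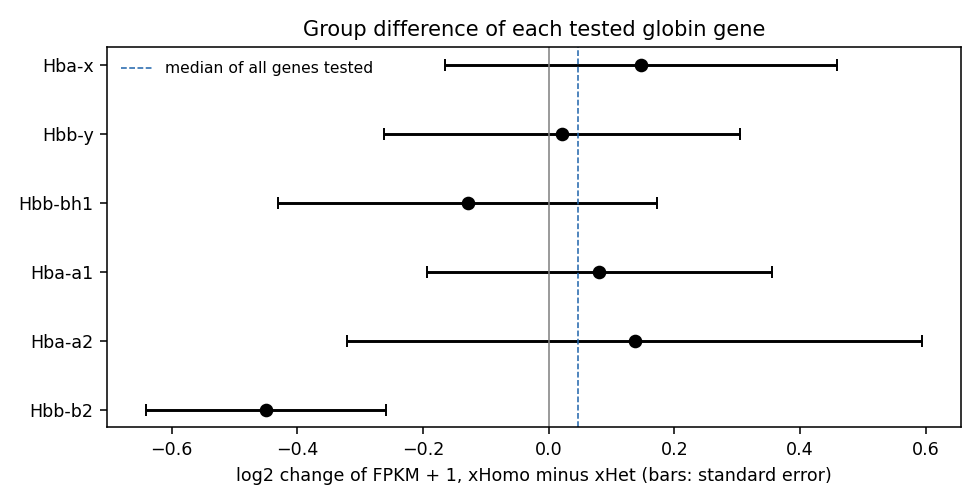
Log2 difference, xHomo minus xHet, for the 6 globin genes tested, on the log2(FPKM + 1) scale, with bars of 1 SE and a dashed line at the median of all genes tested (0.05). Of the 6 points, 5 lie within 1 SE of 0, and Hbb-b2 lies at -0.45.

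Across the 6 genes tested, 4 fitted differences were above 0 and 2 below, with a median of 0.05, against 7620 above and 5135 below over all genes tested, also with a median of 0.05. Set against that median, Hba-x, Hba-a1 and Hba-a2 lay above it and Hbb-y, Hbb-bh1 and Hbb-b2 below it, all but Hbb-b2 within 1 SE of it. Scaling without globin and small RNA genes moved the median of all genes to -0.12 and all 6 values below 0. Above the median were Hba-x at -0.039, Hba-a1 at -0.10 and Hba-a2 at -0.048. Below it were Hbb-y at -0.16, Hbb-bh1 at -0.31 and Hbb-b2 at -0.63. Such scaling divides each library by 1 factor and shifts abundant genes alike, so it could hardly change their order. The values of xHomo and xHet embryos separated for 0 of the 6, against 2.24% of all genes tested, 1.66% with every xHomo embryo above and 0.58% with every xHomo embryo below.

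The SD of log2(FPKM + 1) shows the contrast in spread. It was 0.54 for Hbb-bh1, 0.49 for Hbb-y, 0.56 for Hba-x, 0.49 for Hba-a1 and 0.86 for Hba-a2 among xHomo embryos, against 0.023, 0.028, 0.031, 0.045 and 0.068 among xHet embryos. The median over all genes tested was 0.23 among xHomo and 0.098 among xHet embryos. This scale damps the spread of low genes, which are among those tested. The 5 genes varied more among xHomo embryos than 94.4% (Hba-a1) to 97.7% (Hba-a2) of all genes tested. Hbb-b2 was different in this, at 0.32 among xHomo and 0.30 among xHet embryos.

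The low end was set by the same libraries for most genes. Summed globin FPKM was 5239 in xHomo embryo 4 and 6399 in xHomo embryo 6, and 9827 to 15681 in the other xHomo embryos, against 10323 to 10492 in xHet embryos. As shares of all FPKM, the 7 genes took 1.003% in xHomo embryo 4, 1.10% in xHomo embryo 6 and 2.71% in xHomo embryo 1, against 1.81% to 1.92% in xHet embryos. In whole embryos, fewer red cells and less globin RNA per cell cannot be told apart.

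The balance between embryonic and adult genes was much steadier than the amount. Embryonic genes made up 80.1% ± 0.878 (SD, n = 10) of all globin FPKM in xHomo embryos and 81.1% ± 0.509 (SD, n = 3) in xHet embryos. The single values ran from 78.7% in xHomo embryo 4 to 81.5% in xHomo embryo 2, against 80.7%, 81.7% and 80.9% in xHet embryos. Below all xHet embryos lay 8 xHomo embryos, of which embryo 6, at 80.691%, was all but level with the lowest xHet embryo, at 80.709%; xHomo embryos 2 and 3 lay within the xHet range. No p-value is given for this or the following shares, since the genes were grouped with results of these data known.

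Within the alpha cluster Hba-x made up 51.3% ± 1.499 (SD, n = 10) of the FPKM in xHomo and 50.6% ± 1.03 (SD, n = 3) in xHet embryos, and the groups overlapped on both sides. Within the beta cluster the embryonic pair made up 99.8% ± 0.068 (SD, n = 10) in xHomo and 99.7% ± 0.055 (SD, n = 3) in xHet embryos. With Beta-s counted as adult, the adult share of beta-type FPKM was 0.432% ± 0.112 (SD, n = 10) in xHomo and 0.542% ± 0.0770 (SD, n = 3) in xHet embryos, with 7 xHomo embryos below and 2 above the xHet range. The adult part of the globin RNA was nearly all alpha-type.

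Between the clusters, alpha-type genes took 40.7% ± 2.11 (SD, n = 10) of globin FPKM in xHomo embryos and 37.9% ± 0.295 (SD, n = 3) in xHet embryos. The xHomo values reached from 37.7% in embryo 6 to 44.4% in embryo 9, against 38.1%, 37.6% and 38.1% in xHet embryos. Above all xHet embryos lay 9 of 10 xHomo embryos, and embryo 6 lay within their range. As listed, adult genes were about as abundant as Hba-x in the alpha cluster and nearly absent from the beta cluster. By arithmetic a higher alpha-type share then goes with a lower embryonic share of all globin.

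Within the embryonic beta-type pair, the later-peaking Hbb-y took 62.4% ± 1.62 (SD, n = 10) in xHomo embryos and 59.96% ± 0.605 (SD, n = 3) in xHet embryos. The xHomo values ran from 59.7% in embryo 2 to 64.8% in embryo 6, with a median of 62.8%, against 60.4%, 60.3% and 59.3% in xHet embryos. Here too 9 of 10 xHomo embryos lay above all xHet embryos, all but embryo 2, with xHomo embryo 7 the nearest at 60.404%, against 60.359% in the highest xHet embryo. Stated as a ratio, Hbb-bh1 over Hbb-y was 0.603 ± 0.0419 (SD, n = 10) in xHomo and 0.668 ± 0.0169 (SD, n = 3) in xHet embryos. This ratio does not depend on how a library is scaled. Without xHomo embryos 4 and 6, in which globin RNA was low, xHomo minus xHet means differed by 1.996 percentage points in the Hbb-y share, 2.96 in the alpha-type share and -0.907 in the embryonic share, against 2.47, 2.73 and -1.001 with all embryos. Without xHomo embryo 3 they differed by 2.42, 2.77 and -1.09.

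Because all 3 xHet embryos had Xist under 1 FPKM, these shares were also taken among the 5 xHomo embryos of that kind, a choice made after the values were seen. The Hbb-y share was 63.3% ± 1.02 (SD, n = 5, lowest 62.2%) in these xHomo embryos and 59.96% ± 0.605 (SD, n = 3) in xHet embryos. The 5 xHomo embryos with more Xist had 61.6% ± 1.71 (SD). The alpha-type share was 40.0% ± 2.03 (SD, n = 5) in xHomo embryos with little Xist and 41.3% ± 2.19 (SD, n = 5) in those with more, against 37.9% ± 0.295 (SD, n = 3) in xHet embryos. Here the lowest xHomo embryo with little Xist, at 37.7%, lay within the xHet range of 37.6% to 38.1%. The embryonic share was 79.8% ± 0.882 (SD, n = 5) in xHomo embryos with little Xist and 80.3% ± 0.901 (SD, n = 5) in those with more, against 81.1% ± 0.509 (SD, n = 3) in xHet embryos.

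**Figure D3:**
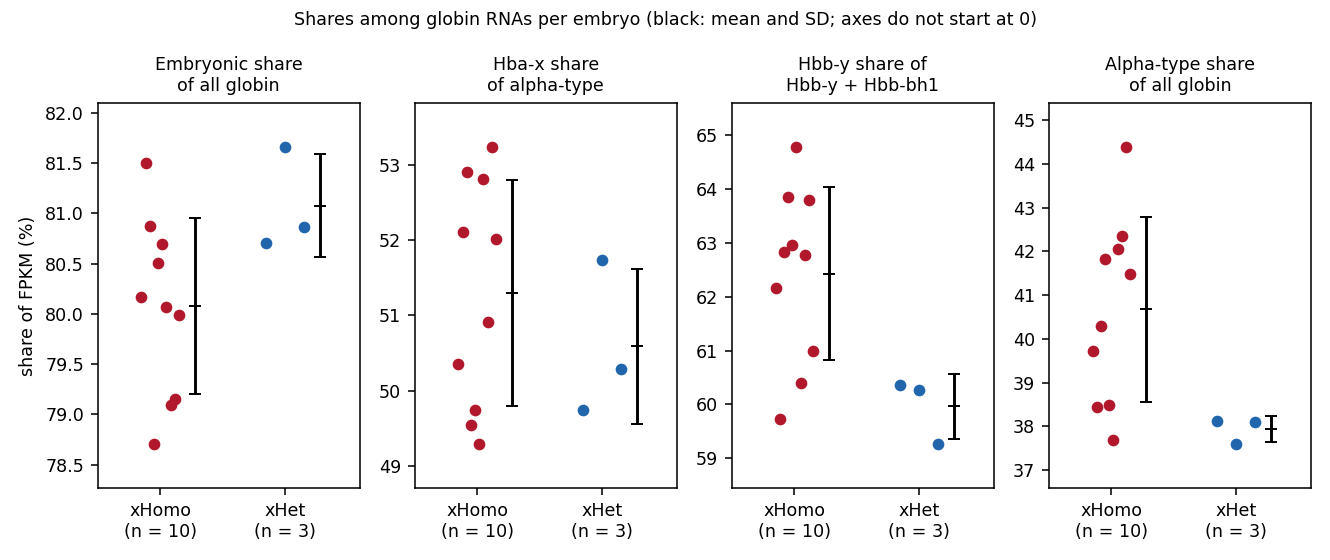
Shares of globin FPKM in percent, 1 point per embryo with the mean and SD of each group, xHomo left of xHet; the axes do not start at 0. The xHomo points lie mostly below the xHet points for the embryonic share (80.1% against 81.1%), and mostly above them for the Hbb-y share of the embryonic beta-type pair (62.4% against 59.96%) and the alpha-type share (40.7% against 37.9%).

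Genes of the 2 clusters varied together among the 10 xHomo embryos. Pearson's r of log2(FPKM + 1) was computed for the 10 pairs without Hba-x, with permutation p-values (two-sided, 100000 permutations) adjusted over those pairs. For 5 pairs with Hba-x no r was taken. The largest gap between sorted Hba-x values was 0.512 of their range, just over the limit of 0.5, against 0.290 (Hbb-y) to 0.488 (Hbb-b2) for the other genes. Hbb-bh1 and Hbb-y had r = 0.986 (Spearman's rho = 1, permutation adjusted p = 0.0001 for both, the smallest the permutations can give), and r = 0.941 without the 2 farthest embryos, 4 and 6. Across the clusters, Hba-a1 had r = 0.955 with Hbb-y (rho = 0.952, permutation adjusted p = 0.0002 and 0.000367) and r = 0.935 with Hbb-bh1 (rho = 0.952, permutation adjusted p = 0.000267 and 0.000367). Without the 2 farthest embryos these were 0.930 and 0.834.

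The correlations of Hba-a2 rested on those 2 embryos. Its r was 0.826 with Hbb-bh1, 0.813 with Hbb-y and 0.685 with Hba-a1 (permutation adjusted p = 0.0120, 0.0126 and 0.0388), and 0.193, 0.168 and 0.049 without them. Spearman's rho for the same pairs was 0.564, 0.564 and 0.479 (permutation adjusted p = 0.121, 0.121 and 0.185). Of the 4 pairs with Hbb-b2 none passed, with r of 0.473 to Hbb-bh1, 0.572 to Hbb-y, 0.591 to Hba-a1 and 0.170 to Hba-a2 (permutation adjusted p = 0.172, 0.0967, 0.0967 and 0.635). Without the 2 farthest embryos these were 0.620, 0.769, 0.776 and -0.22. The embryos left out were 9 and 4 for Hba-a2 with Hbb-b2 and 4 and 6 for the others. After median-of-ratios scaling 2 of the 4 passed, Hbb-b2 with Hbb-y (r = 0.675) and with Hba-a1 (r = 0.686, permutation adjusted p = 0.0398 for both). All genes of 1 library share its depth and its scaling.

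**Figure D4:**
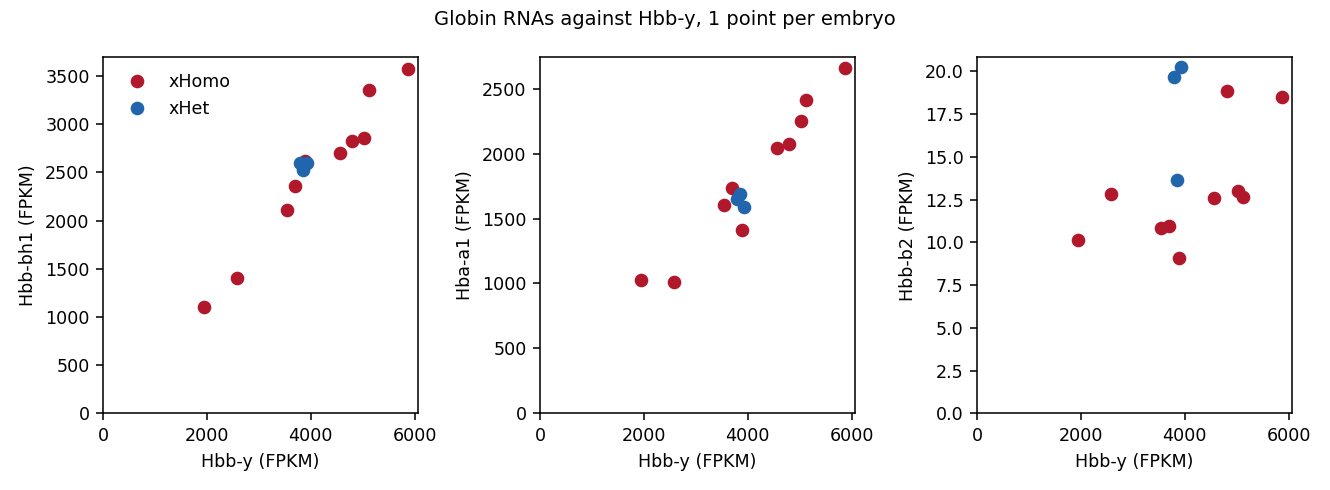
FPKM of Hbb-bh1, Hba-a1 and Hbb-b2 against FPKM of Hbb-y, 1 point per embryo, xHomo and xHet in separate colours. Hbb-bh1 and Hba-a1 follow Hbb-y over its 3.02-fold xHomo range (r = 0.986 and 0.955), the xHet embryos sit together in the middle, and Hbb-b2 is scattered (r = 0.572).

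Genes for making heme, the iron-holding group of hemoglobin, varied with the globins from embryo to embryo, though to different degrees. All 11 heme synthesis genes listed had r above 0 with summed embryonic globin over the 10 xHomo embryos. Their r ran from 0.170 to 0.931 with a median of 0.78, against a median of -0.14 over all 12718 genes correlated. The highest was Alas2, the first enzyme of heme synthesis in red cells (r = 0.931, rho = 0.952, and r = 0.801 without embryos 4 and 6), at 10.5 FPKM in xHomo embryo 4 and 12.5 in xHomo embryo 6, with a mean of 17.9 ± 4.65 FPKM (SD, n = 10) in xHomo and 20.49 ± 1.57 FPKM (SD, n = 3) in xHet embryos. Between the groups, 1 of the 11 passed as higher and 0 as lower, against 0.0235% and 0% of all genes tested. Fitted differences were above 0 for 5 and below 0 for 6, with a median of -0.02. The gene that passed was Alad, the enzyme that joins aminolevulinic acid, at 55.2 ± 5.98 FPKM (SD, n = 10) in xHomo and 26.5 ± 0.208 FPKM (SD, n = 3) in xHet embryos, higher in 10 of 10 (log2 difference 1.02, SE 0.098, limma adjusted p = 0.000578). Alad passed in 20 of the 22 alternatives run for it. It did not pass by exact permutation (adjusted p = 0.388) or with the replicate block (limma adjusted p = 0.751). The permutation test cannot decide on Alad, since its splits are too few for a handful of genes to pass adjustment.

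After Alas2, the genes with the profile most like the embryonic globins over the 10 xHomo embryos, of all genes correlated, were Cited4 (r = 0.922), Car2 (0.913) and Blvrb (0.903). Car2 is a carbonic anhydrase and Blvrb a biliverdin reductase. Without embryos 4 and 6 r was 0.725 for Cited4, 0.796 for Car2 and 0.624 for Blvrb. The genes closest to the adult sum were Cited4 (r = 0.920), Blvrb (0.916), Fth1 (0.909), the ferritin heavy chain, Alas2 (0.907) and Acyp1 (0.901).

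Other red cell genes gave no call between the groups; values of named genes here and for other cells are means ± SD of 10 xHomo and 3 xHet embryos. Of 17 red cell membrane and chaperone genes tested, 0 passed in either direction, with 4 fitted above 0, 13 below and a median of -0.15, and 15 of 17 had r above 0 with embryonic globin (median 0.50). Those with the smallest p were Bpgm, which makes bisphosphoglycerate, the small molecule that loosens oxygen from hemoglobin (15.4 ± 2.04 FPKM, n = 10, in xHomo and 13.2 ± 0.651, n = 3, in xHet embryos, SD, limma adjusted p = 0.578), and Ermap, an erythroid membrane protein (3.24 ± 1.005 FPKM in xHomo and 4.36 ± 0.350 in xHet embryos, limma adjusted p = 0.581). Car1, the carbonic anhydrase of definitive red cells, was listed at 0 in all 13 embryos. Of 12 erythroid regulators 0 passed (median -0.07, median r 0.46), the smallest p being those of Gfi1b, a repressor of erythroid and megakaryocyte genes (1.46 ± 0.677 FPKM in xHomo and 0.957 ± 0.146 in xHet embryos, SD, limma adjusted p = 0.683) and Lmo2, a partner of GATA1 and TAL1 (10.2 ± 1.44 FPKM in xHomo and 11.2 ± 0.887 in xHet embryos, limma adjusted p = 0.737).

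Of 9 regulators of the globin switch tested 0 passed (median -0.04), and their median r with embryonic globin was -0.30, against -0.14 over all genes. Sox6, a silencer of embryonic globin, was at 2.06 ± 0.359 FPKM (SD, n = 10) in xHomo and 1.65 ± 0.104 FPKM (SD, n = 3) in xHet embryos (limma adjusted p = 0.601). Lin28b, an RNA-binding protein that holds back the switch to adult globin, was at 23.9 ± 2.99 FPKM in xHomo and 27.0 ± 1.13 FPKM in xHet embryos (limma adjusted p = 0.612). Of 4 tested genes beside the alpha cluster on chromosome 11 (Nprl3, Mpg, Rhbdf1 and Snrnp25) 0 passed, and Nprl3, whose introns hold the enhancers of the alpha genes, had the smallest p (9.90 ± 1.42 FPKM in xHomo and 11.8 ± 0.844 in xHet embryos, SD, limma adjusted p = 0.547). Mpg, a DNA repair glycosylase at the same place, was at 9.88 ± 1.07 FPKM in xHomo and 8.93 ± 0.222 FPKM in xHet embryos (limma adjusted p = 0.683). Of other globins 2 were tested and 0 passed, Hbq1b, the theta-type gene of the alpha cluster, at 2.02 ± 0.962 FPKM in xHomo and 2.51 ± 0.526 in xHet embryos (limma adjusted p = 0.759), and Cygb, cytoglobin, at 1.05 ± 0.307 FPKM in xHomo and 0.870 ± 0.141 FPKM in xHet embryos (limma adjusted p = 0.826).

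**Figure D5:**
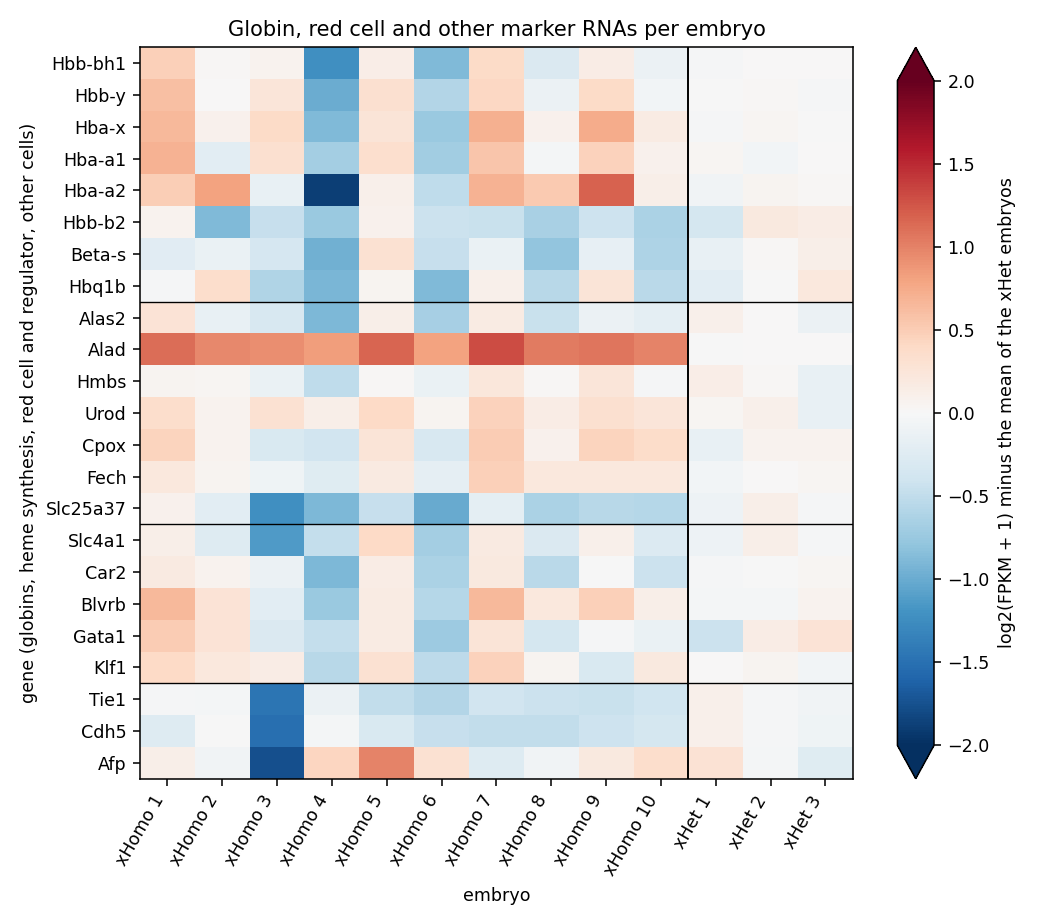
Difference of log2(FPKM + 1) from the xHet mean in each embryo (columns, xHomo 1 to 10 then xHet 1 to 3) for globin genes, heme synthesis genes, red cell genes and markers of other cells (rows). The rows of the 5 abundant globin genes and of Alas2 are lowest in xHomo embryos 4 and 6, Alad is above its xHet mean in all 10 xHomo embryos, and the endothelial genes Tie1 and Cdh5 are lowest in xHomo embryo 3.

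Markers of other cells in or around a dissected embryo were also read, and their part in the globin values was not tested. Of 7 endothelial genes tested 0 passed, with all 7 fitted below 0 (median -0.29), against 5135 of 12755 genes tested (median 0.05). Their median r with embryonic globin was -0.20, near the -0.14 over all genes. Without xHomo embryo 3 the log2 difference went from -0.44 to -0.33 for Tie1 and from -0.43 to -0.31 for Cdh5. Tie1 was at 14.4 ± 3.63 FPKM (SD, n = 10) in xHomo and 19.3 ± 1.34 FPKM (SD, n = 3) in xHet embryos (limma adjusted p = 0.556), and Cdh5 at 27.9 ± 6.71 FPKM in xHomo and 36.9 ± 2.55 FPKM in xHet embryos (limma adjusted p = 0.565). Megakaryocyte markers, of cells that share a precursor with red cells, summed to 12.8 to 48.1 FPKM in xHomo and 21.5 to 29.3 FPKM in xHet embryos, with 0 of 7 tested passing. Gp1ba was at 0.954 ± 0.377 FPKM in xHomo and 1.38 ± 0.121 FPKM in xHet embryos (limma adjusted p = 0.595), and Itga2b at 2.98 ± 1.03 FPKM in xHomo and 3.69 ± 0.505 FPKM in xHet embryos (limma adjusted p = 0.713).

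Visceral endoderm markers, of the yolk sac lining, summed to 15.4 to 83.9 FPKM in xHomo and 45.6 to 59.5 FPKM in xHet embryos, and 0 of 5 tested passed. Trf was at 6.09 ± 1.88 FPKM in xHomo and 9.24 ± 2.16 FPKM in xHet embryos (limma adjusted p = 0.521) and Ttr at 4.01 ± 1.92 FPKM in xHomo and 5.10 ± 1.21 FPKM in xHet embryos (limma adjusted p = 0.725). Placental markers summed to at most 5.73 FPKM in xHomo and at most 4.01 FPKM in xHet embryos, with Tpbpa and Ctsq, which define trophoblast layers, listed at 0 in all embryos, and Prl3b1 at 1.22 ± 0.922 FPKM in xHomo and 2.06 ± 0.995 FPKM in xHet embryos (limma adjusted p = 0.647). Macrophage markers summed to 3.39 to 8.43 FPKM in xHomo and 5.79 to 8.44 FPKM in xHet embryos, with Cd68 at 4.51 ± 1.08 FPKM in xHomo and 5.58 ± 1.56 FPKM in xHet embryos (limma adjusted p = 0.685).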

How the data were processed

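Samples were 13 single mouse embryos, grouped by the genotype label. Per the labels' protocols, RNeasy RNA with on-column DNase digestion went into directional NEBNext Ultra libraries of poly(A) RNA. The authors deposited FPKM values per gene on mm9, written to 2 decimals; bcl2fastq 1.8.2, TopHat and Cufflinks are named in the submitters' processing notes. For TopHat and Cufflinks no version, and for the table no annotation, filter, strand setting or treatment of multiply mapping reads, was given in the sources read. Because FPKM divides by all mapped fragments, a few abundant RNAs shift all other values. No steps of whole reads were seen in low values, so depth is unknown and no counting interval is given. A 0 can be a failed estimate.

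Groups were compared on log2(FPKM + 1) by limma (version 3.58.1, under R 4.3.3), with moderated variances that follow a trend, two-sided and without covariates, for the 12755 genes whose mean FPKM reached 1, with Benjamini-Hochberg adjustment at 0.05; fold changes on that scale understate changes of low genes. Of the 7 globin genes 6 were tested. The limma step and the exact permutation test were tested on simulated data. Shares are sums of FPKM over sums of FPKM. Correlations used 10 xHomo embryos. Those between globin genes were not taken where the largest gap between sorted values exceeded 0.5 of their range. Correlations of other genes with globin sums and shares had no such check. Replicate numbers 1 to 3 occur in both groups and do not pair the embryos. Alternatives were a pseudocount of 0.1, no filter, TPM rescaling, median-of-ratios scaling, scaling without globin and small RNA genes, array weights, an Xist covariate, a replicate block, exact permutation over 286 splits and leaving out each embryo; Beta-s counted as adult, summed shared loci, leaving out xHomo embryos 4 and 6, and the Xist split were added after seeing the data.

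The globin genes and 11 gene lists (108 genes, 103 of them in the table) were chosen with earlier results of these data known. Named were all globin genes, passing list genes or else the 2 with the smallest p per list, and the 5 genes with the highest r to the summed embryonic globin, the summed adult globin and the embryonic share, with the 3 lowest for the last; 1 gene that the rule names is not reported here. Promoter letters are RefSeq's (GRCm38.p6), coding letters GENCODE's (M21); no coordinates were converted between builds. Other steps ran in Python 3.11.15 (pandas 2.3.3, numpy 2.4.6); plots were drawn by matplotlib 3.10.9.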

Additional observations from a re-analysis of the deposited data

Results flagged for a closer look

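Dixon's test was applied to 33 genes over the 10 xHomo embryos, and in 6 the highest or lowest embryo stood farther from its nearest neighbour than the 95% critical value of 0.466 of the range allows; chance flags about 1 in 20 groups. Hbb-b1 was listed at 5.34 FPKM in xHomo embryo 3 and at 0 in the other xHomo embryos. In the same embryo 4 more genes were the lowest: Tie1 at 6.35 FPKM, Cdh5 at 12.3 FPKM, Itga2b at 1.02 FPKM and Cd68 at 2.20 FPKM. Lmo2 was the highest in xHomo embryo 2, at 13.8 FPKM. None of the abundant globin genes was among the 6.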

How the results depend on the processing

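No share difference moved by more than the SD among xHomo embryos under any alternative run for it, but the smallest turned sign. The embryonic share of beta-type FPKM (0.0601 points) became -0.00734 without Hba-a2 and Hbb-b2, and the globin share of summed FPKM (0.0243 points) became -0.154 without small RNA genes and -0.0649 to 0.124 with 1 embryo left out. Leaving out 1 embryo at a time gave xHomo minus xHet differences, in percentage points, of -1.19 to -0.711 for the embryonic share, 2.12 to 2.77 for the Hbb-y share and 2.32 to 3.06 for the alpha-type share. No globin gene passed under any alternative but Hbb-b2 with array weights (-0.57, adjusted p = 0.0141), a fit with 2371 genes higher and 408 lower. The 3 higher calls became 5 with TPM rescaling, 1 with the Xist covariate and 0 by exact permutation (smallest adjusted p 0.388), and 1 to 10 with 1 embryo left out (1 without xHet 2 or 3, 5 without xHomo 2, 10 without xHomo 3). Exact permutation has too few splits for a handful of genes to pass adjustment over all genes tested. Its count of 0 therefore cannot decide on the 3 calls. The 0 lower calls became 8 with no filter, 1 with totals without globin and small RNA genes, and 0 to 2 with 1 embryo left out (2 without xHet 1, 1 without xHomo 3 or 10); at unadjusted p under 0.05 there were 220. Causes were not tested. Signs of the globin differences turned as follows: Hbb-y to -0.057 (TPM), -0.019 (median-of-ratios), -0.15 (Xist), -0.16 (totals without globin and small RNA genes) and -0.043 to 0.13 (1 embryo left out); with the Xist covariate Hba-x to -0.12, Hba-a1 to -0.073 and Hba-a2 to -0.29; with totals without globin and small RNA genes Hba-x to -0.039, Hba-a1 to -0.10, Hba-a2 to -0.048 and Mpg to -0.041; and without xHomo embryos 4 and 6 Hbb-bh1 to 0.10. The r of Hba-a2 with Hbb-b2 was -0.22 without its 2 farthest embryos. By Spearman's rho 3 pairs passed and after median-of-ratios scaling 8, against 6 by Pearson's r. Same-numbered embryos did not deviate together (correlations -0.0652, -0.0403 and -0.0383). With the replicate number as a block 0 genes were higher and 1 lower, Hbb-bh1 was at 0.19 and Mpg at -0.0031. Only numbers 1 to 3 occur in both groups, so xHomo embryos 4 to 10 did not enter the group difference of that fit. It compared 3 xHomo with 3 xHet embryos and had little power. Unknown depth limits Hbb-b1, Hbb-b2 and other low genes most.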

Other observations

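The Hbb-y share of the embryonic beta-type pair was set beside all 12718 genes over the 10 xHomo embryos, after the share had been seen to differ among them. The 5 genes with the highest r were Stmn2 (0.925), Dear1 (0.917), Oxct1 (0.908), Hoxd12 (0.897) and Nefm (0.874). Stmn2 and Nefm are genes of differentiating neurons. Stmn2 was at 5.96 FPKM in xHomo embryo 2, where the Hbb-y share was 59.7%, and at 19.4 FPKM in both xHomo embryos 4 and 6, where it was 63.9% and 64.8%. Its mean was 13.4 ± 4.41 FPKM (SD, n = 10) in xHomo and 8.55 ± 1.25 FPKM (SD, n = 3) in xHet embryos. Nefm was at 9.98 ± 3.01 FPKM (SD, n = 10) in xHomo and 5.75 ± 0.0889 FPKM (SD, n = 3) in xHet embryos, with 9 of 10 xHomo embryos above all xHet embryos. Without the 2 embryos farthest in share, 7 and 2, r was 0.844 for Stmn2 and 0.752 for Nefm. The lowest r were those of Trmt61b (-0.925), Snord45c (-0.911) and Slc9a3r1 (-0.855). These are the extremes of 12718 correlations and carry no test.

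Against the embryonic share of all globin the highest r were those of Gm5176 (0.944), 2610019E17Rik (0.867), Uxt (0.845), Mir697 (0.840) and 3110003A17Rik (0.833), and the lowest those of Fezf2 (-0.903), Unc5a (-0.900) and Zfp362 (-0.888). Unc5a, a netrin receptor, was at 1.40 to 4.79 FPKM in xHomo and 2.70 to 3.40 FPKM in xHet embryos.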
